A study of Homo sapiens and Mus musculus with 18 samples.

Results

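Transcripts of 9 genes, LHX5, LGI1, SEZ6, HESX1, SIX3, SIX6, RAX, LHX2 and FEZF1, were followed in bulk RNA-seq of human and mouse embryonic stem cells (ESCs) and gastruloids. Each symbol named 1 row of the human count table and 1 row of the mouse count table, so 9 of 44910 human genes and 9 of 29720 mouse genes were members. LHX5, LGI1 and SEZ6 were chosen for their high level in primed RUES2-GLR ESCs over primed H9 ESCs or for their fall at 24 h, so their values in those comparisons are given as a description with no test. The other 6 genes were chosen as genes of the anterior neural plate. Earlier results of these data were known at that choice, so their counts below are not independent of the data.

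The anterior neural plate is the part of the early neural ectoderm that forms the forebrain and the eyes. Its transcription factors include the homeodomain proteins HESX1, SIX3, SIX6 and RAX, the LIM homeodomain proteins LHX2 and LHX5, and the zinc finger repressor FEZF1. The region arises where WNT, BMP, NODAL and retinoic acid signals are kept low, by secreted antagonists and by the CYP26 enzymes that break down retinoic acid. LGI1, a secreted leucine-rich repeat protein, and SEZ6, a membrane protein with CUB and sushi repeats, are known from neurons and their synapses.

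There were 5 human groups (10 samples) and 4 mouse groups (8 samples), each with 2 replicates. Human naïve H9 ESCs had been chemically reset and kept in PXGL medium, and primed H9 and primed RUES2-GLR ESCs were kept in StemFlex on Geltrex. RUES2-GLR is a single reporter line with fluorescent tags on SOX2, TBXT and SOX17. Early (24 h) and late (120 h) RA-gastruloids were made from RUES2-GLR cells. In a pre-treatment these cells were plated on vitronectin in NutriStem, then given the WNT activator CHIR99021, then CHIR99021 with retinoic acid (RA). They were then aggregated in a further medium with CHIR99021. Hours count from aggregation, so the step from primed RUES2-GLR to 24 h also spans the pre-treatment and changes of medium and coating. Late RA-gastruloids received Matrigel with RA after the 24 h samples were taken. Mouse samples were E14Tg2a ESCs in 2iLIF (naïve), epiblast-like cells (EpiLCs) grown from them for 2 days in ActivinA and bFGF, and early (72 h) and late (144 h) gastruloids aggregated directly from the 2iLIF cells with a CHIR99021 pulse. Gastruloids were pooled within a sample, and the 2 replicates of a group were collected as 1 batch. Total counts ran from 3681739 to 38771193 in the human samples and from 6487157 to 20052505 in the mouse samples, and the shallowest was primed RUES2-GLR replicate 2. Levels are given as CPM, counts over library sizes scaled by TMM (the trimmed mean of M-values), on which 3 counts are worth 0.0715 to 0.956 CPM in human and 0.148 to 0.447 CPM in mouse samples.

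All 9 human genes lie on different chromosomes in GRCh38: SIX3 on chromosome 2 (44941702 to 44946071, plus strand), HESX1 on 3 (57197838 to 57227606, minus), FEZF1 on 7 (122301303 to 122310691, minus), LHX2 on 9 (124001670 to 124033301, plus), LGI1 on 10 (93757840 to 93806272, plus), LHX5 on 12 (113462033 to 113472280, minus), SIX6 on 14 (60509146 to 60512850, plus), SEZ6 on 17 (28954901 to 29006440, minus) and RAX on 18 (59267035 to 59274086, minus). No members are therefore neighbours of each other. RefSeq promoters of GRCh38.p14, 250 bases before to 50 bases after a transcription start, were matched for 6 of the 9 genes (HESX1, FEZF1, LHX2, LGI1, SIX6 and RAX), 8 promoters in all. Those of HESX1 (chr3:57199929-57200228, minus strand), LGI1 (chr10:93757686-93757985, plus strand) and FEZF1 (chr7:122304701-122305000, minus strand) are printed because these genes moved together below while their promoters held different motif letters, with matches in capitals.
HESX1: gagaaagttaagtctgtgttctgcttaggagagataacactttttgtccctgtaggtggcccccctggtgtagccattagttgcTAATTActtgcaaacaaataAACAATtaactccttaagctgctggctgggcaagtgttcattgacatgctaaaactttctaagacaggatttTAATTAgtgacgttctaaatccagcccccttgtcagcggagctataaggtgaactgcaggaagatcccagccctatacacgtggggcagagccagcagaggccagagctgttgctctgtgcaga
LGI1: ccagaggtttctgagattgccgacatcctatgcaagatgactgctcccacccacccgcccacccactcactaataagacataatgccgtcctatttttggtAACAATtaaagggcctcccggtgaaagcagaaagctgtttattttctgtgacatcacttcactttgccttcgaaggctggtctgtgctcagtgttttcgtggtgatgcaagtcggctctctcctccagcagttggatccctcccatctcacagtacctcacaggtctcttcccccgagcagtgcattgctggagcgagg
FEZF1: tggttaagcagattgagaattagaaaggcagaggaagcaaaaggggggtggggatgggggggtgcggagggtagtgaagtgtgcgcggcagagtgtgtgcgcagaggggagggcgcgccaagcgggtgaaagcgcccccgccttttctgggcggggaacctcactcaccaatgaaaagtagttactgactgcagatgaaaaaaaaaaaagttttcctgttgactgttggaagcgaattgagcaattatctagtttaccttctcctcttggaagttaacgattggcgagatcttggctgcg
The motifs searched on both strands were the homeodomain core TAATTA, the OTX-type site GGATTA, the SOX-type site AACAAT, the TCF/LEF core CTTTGA and the nuclear receptor half-site AGGTCA. The printed HESX1 promoter held 2 TAATTA and 1 AACAAT, while the other HESX1 promoter (chr3:57227566-57227865, minus strand) held none of the motifs. LGI1 held 1 AACAAT, SIX6 held 1 CTTTGA, and no matches overlapped. TAATTA was in 1 of the 8 promoters against 4.84% of all 35116 promoters, AACAAT in 2 against 10.1%, CTTTGA in 1 against 12.9%, and GGATTA and AGGTCA in 0 against 6.36% and 13.8%. The other 5 promoters, the printed one of FEZF1 among them, held none of these letters.

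The members were low in every human group but primed RUES2-GLR. Summed over the 9 genes, the level was 388 and 365 CPM in the 2 primed RUES2-GLR libraries, against 14.7 and 15.9 CPM for primed H9, 3.87 and 5.45 CPM for naïve H9, 7.40 and 5.25 CPM at 24 h, and 1.26 and 1.32 CPM at 120 h. For 8 of the 9 genes both primed RUES2-GLR libraries lay above all 8 other human libraries. LHX2 was the exception, with its lower primed RUES2-GLR library at 1.27 CPM and its highest other library at 1.72 CPM. The count is a description only, because the share of all genes separated in this way was not worked out. It also includes LHX5, LGI1 and SEZ6, which were chosen on such values, and SIX3 and RAX, which passed the filter on low counts only through these libraries. In bulk samples, fewer cells of a type and less RNA per cell cannot be told apart.

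**Figure D1:**
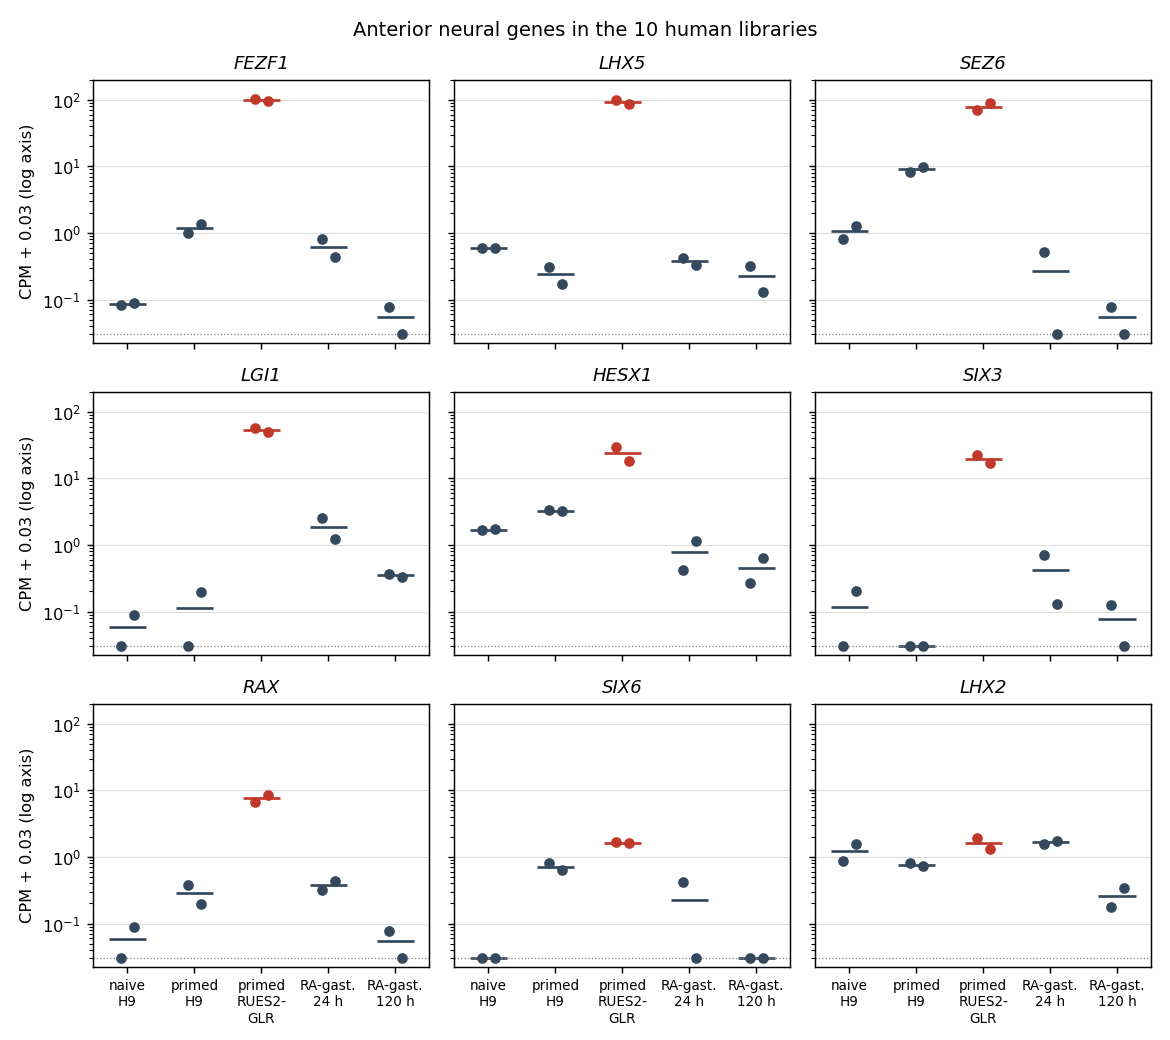
Level of each member in the 10 human libraries, in CPM with 0.03 added so that 0 can be drawn, on a log axis; dots are the 2 replicates of a group, the short line is their mean and the dotted line marks 0. Primed RUES2-GLR stood above the other 4 groups in every panel but that of LHX2.

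In primed RUES2-GLR ESCs LHX5 measured 97.5 and 85.7 CPM. In the other groups it measured 0.280 and 0.143 CPM (primed H9), 0.575 and 0.574 CPM (naïve H9), 0.384 and 0.303 CPM (24 h) and 0.291 and 0.102 CPM (120 h). Both primed RUES2-GLR libraries lay far above the rest, whose values rested on 1 to 11 counts each. The fitted log2 difference was 8.95 (SE 0.25) for primed RUES2-GLR over primed H9 ESCs and -8.03 (SE 0.26) for 24 h over primed RUES2-GLR ESCs, in each case with the contrast for which the gene was picked. Without primed H9 replicate 2 the first value was 8.29.

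LGI1 measured 57.2 and 49.4 CPM in primed RUES2-GLR ESCs, 0 and 0.167 CPM for primed H9, 0 and 0.0574 CPM for naïve H9, 2.50 and 1.21 CPM at 24 h and 0.339 and 0.306 CPM at 120 h. Its log2 difference was 8.68 (SE 0.32) between the primed lines and -4.85 (SE 0.25) from primed RUES2-GLR to 24 h. Without 24 h replicate 1 or 2 the second value was -5.45 or -4.41. All 7 LGI1 counts of primed H9 lay in replicate 2, and without that library, against 0 counts, the first value was 12.44, which is no bound. LGI1 at 24 h still lay above both primed H9 libraries.

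SEZ6 was the member with the most counts in primed H9 ESCs. It measured 8.25 and 9.65 CPM there, 0.784 and 1.26 CPM in naïve H9, 70.1 and 87.9 CPM in primed RUES2-GLR, 0.480 and 0 CPM at 24 h and 0.0485 and 0 CPM at 120 h. The 2 primed lines were separated by a log2 difference of 3.10 (SE 0.18), less than for LHX5 or LGI1, and the difference to 24 h was -8.26 (SE 0.33). At 24 h 5 counts were left, all in replicate 1, and 1 count at 120 h. Without 24 h replicate 2 the difference to 24 h was -7.30, and without replicate 1, against 0 counts, it was -13.31, which is no bound.

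The 6 genes not picked on this contrast were all higher in primed RUES2-GLR than in primed H9 ESCs (6 of 6 by the quasi-likelihood test of edgeR, at a Benjamini-Hochberg adjusted p below 0.05 and an absolute log2 fold change of at least 1). Over all 18300 human genes tested, 17.1% were called higher in primed RUES2-GLR and 12.2% lower. The median log2 fold change of these 6 genes was 3.99, also with SIX3 at its bound given below, against -0.12 for all genes tested. SIX3 and RAX, like LHX5, entered the test only through the primed RUES2-GLR libraries, without which 6 of the 9 members pass the filter on low counts, so their calls were favoured by the filter. Of the 4 unpicked members that pass it without those libraries (FEZF1, HESX1, LHX2 and SIX6) 4 were higher, with a median of 2.14. The share of calls that were higher was 58.4%, and 68.7% or 71.2% with DESeq2 size factors or upper quartile scaling, which put the median of all genes at 0.00 and 0.02; none of these changed the 6 calls.

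FEZF1 had the most counts of the 9 genes in primed RUES2-GLR ESCs, at 101 and 94.6 CPM, while primed H9 measured 0.978 and 1.31 CPM. The difference was 6.33 on the log2 scale (SE 0.19, adjusted p = 2.58e-22 by edgeR's quasi-likelihood test), or 80.6-fold. SIX3 had 0 counts in both primed H9 libraries and 272 and 54 counts (22.3 and 17.2 CPM) in primed RUES2-GLR (edgeR adjusted p = 3.40e-16). With primed H9 set at a bound of 3 counts over the group this was 398-fold higher, and the exact 95% counting interval began at 322-fold. SIX3 acts in forebrain and eye development together with RAX and SIX6.

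RAX, required for eye formation, went from 0.349 and 0.167 CPM to 6.63 and 8.60 CPM between the primed lines, a log2 fold change of 5.02 (SE 0.43, edgeR adjusted p = 1.48e-11). HESX1, a repressor needed for forebrain and pituitary development, rose from 3.28 and 3.19 CPM to 29.2 and 18.5 CPM (log2 fold change 2.96, SE 0.22, edgeR adjusted p = 8.65e-13). By the size of this log2 fold change LHX5 ranked 14, LGI1 16, FEZF1 62, RAX 129, SEZ6 571, HESX1 623, SIX6 2833 and LHX2 2936 from the highest of the 18300 genes; SIX3, with 0 counts in primed H9, is given no rank. The groups did not overlap for RAX or HESX1, and the 2 primed RUES2-GLR libraries differed more for HESX1 than the 2 primed H9 libraries did.

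SIX6 and LHX2 showed much smaller differences. SIX6 went from 0.769 and 0.596 CPM to 1.64 and 1.59 CPM (log2 fold change 1.31, SE 0.51, edgeR adjusted p = 0.0299). Its call was lost when any one of the 4 libraries was left out (log2 fold change 1.40 and 1.05 without primed H9 replicate 1 and 2, 1.40 and 1.41 without primed RUES2-GLR replicate 1 and 2), and also with DESeq2 and with a replicate block, over which alternatives the adjusted p ran from 0.00239 to 0.394. LHX2, which acts in eye and cortex development, measured 0.769 and 0.691 CPM against 1.88 and 1.27 CPM (log2 fold change 1.27, SE 0.45, edgeR adjusted p = 0.0162). The call on LHX2 was lost without primed H9 replicate 2 (1.14), without primed RUES2-GLR replicate 1 (0.96) and with DESeq2, and its adjusted p ran from 0.00229 to 0.463 over the alternatives. Without primed RUES2-GLR replicate 1 or primed H9 replicate 2, therefore, neither SIX6 nor LHX2 was called.

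**Figure D2:**
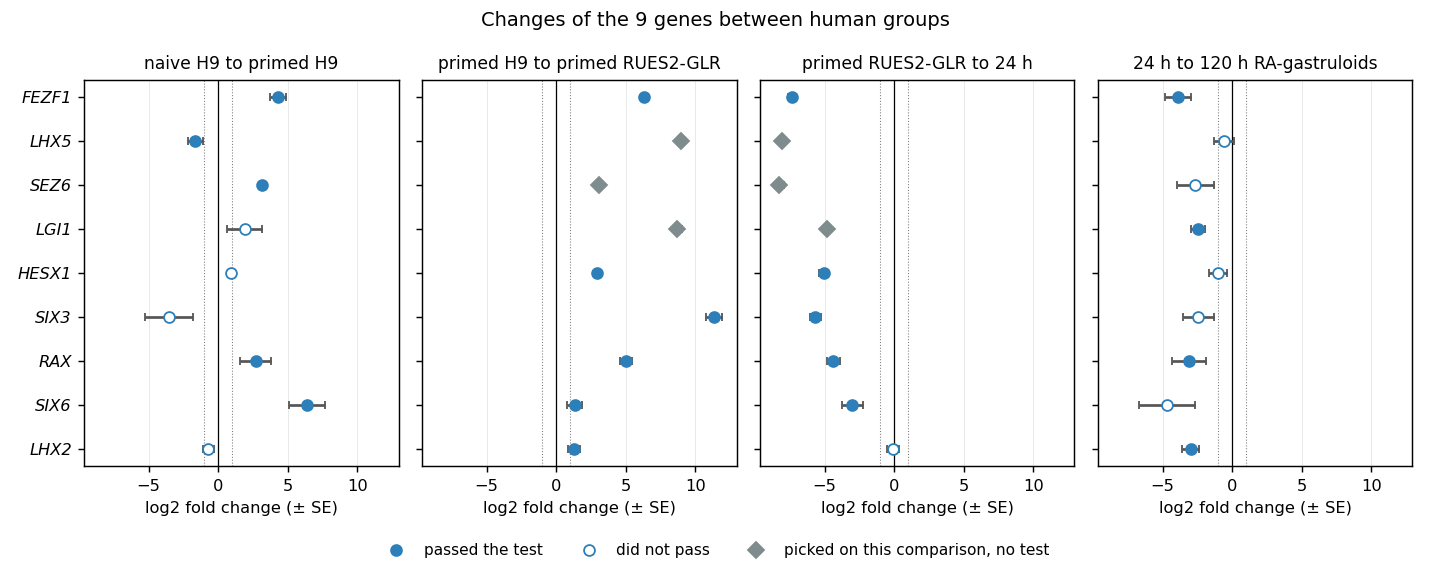
Log2 fold change with its SE (bars) of each member in 4 comparisons; filled points passed the edgeR test and the fold threshold, open points did not, and grey diamonds are picked members with no test in that comparison. A point against a group with 0 counts (SIX3 in primed H9, SIX6 in naïve H9 and at 120 h) depends on the prior count and is no bound. Points lie to the right for primed RUES2-GLR over primed H9 and, except LHX2 near 0, to the left for 24 h over primed RUES2-GLR.

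Levels of different genes were compared per transcript length, as TPM computed from the counts and the merged exon length. In primed RUES2-GLR ESCs FEZF1 reached 71.6 ± 5.28 TPM (SD, n = 2), LHX5 64.4 ± 7.56 TPM, HESX1 34.5 ± 11.8 TPM and SEZ6 34.3 ± 4.58 TPM. SIX3 followed at 15.7 ± 3.25 TPM, LGI1 at 7.43 ± 0.968 TPM and RAX at 4.32 ± 0.678 TPM, with LHX2 and SIX6 lowest at 1.36 ± 0.407 and 1.34 ± 0.0614 TPM. In this order the replicates of FEZF1 and LHX5, of HESX1 and SEZ6 and of LHX2 and SIX6 overlapped. FEZF1 ranked 1175 and LHX5 1303 of 44910 genes by TPM, and SIX6 ranked 13741. The merged exons of LGI1 span 15449 bases, so its CPM exceeded that of HESX1 while its TPM was lower.

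Of the summed member CPM, which is not corrected for length, in the 2 primed RUES2-GLR libraries, FEZF1 made up 26.1% and 25.9%, LHX5 25.2% and 23.5%, SEZ6 18.1% and 24.1%, and LGI1 14.8% and 13.5%. RAX, SIX6 and LHX2 each made up 2.36% or less.

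From primed RUES2-GLR ESCs to 24 h RA-gastruloids, 5 of the 6 unpicked members were lower by edgeR's quasi-likelihood test, against 17.6% of all genes tested (12.0% were higher). Their median log2 fold change was -4.72, and that of all genes was 0.08. SIX3 and RAX are among the 5 and passed the filter only through the primed RUES2-GLR libraries; of the 4 that pass it without them (FEZF1, HESX1, LHX2 and SIX6) 3 were lower. FEZF1 fell to 0.769 and 0.404 CPM (log2 fold change -7.36, SE 0.24, edgeR adjusted p = 1.08e-21), and SIX3 to 0.673 and 0.101 CPM (-5.67, SE 0.40, edgeR adjusted p = 3.97e-13). HESX1 fell to 0.384 and 1.11 CPM (-5.08, SE 0.32, edgeR adjusted p = 1.72e-14) and RAX to 0.288 and 0.404 CPM (-4.37, SE 0.48, edgeR adjusted p = 3.60e-09).

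SIX6 measured 0.384 and 0 CPM at 24 h, a log2 fold change of -3.00 (SE 0.77, edgeR adjusted p = 0.00141). Without primed RUES2-GLR replicate 1 the SIX6 call was lost (-3.06), and over its alternatives the adjusted p ran from 0.000128 to 0.0603. LHX2 was the member not called: it measured 1.54 and 1.72 CPM at 24 h, inside the range of its 2 primed RUES2-GLR libraries, with a log2 fold change of -0.09 (SE 0.45, edgeR adjusted p = 0.884). For the 3 picked members together with the 5 called ones, both 24 h libraries lay below both primed RUES2-GLR libraries, which is 8 of 9 members. The share of all genes separated in this way was not worked out, and the picked members were chosen on such values, so nothing is read from this count.

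From 24 h to 120 h, 4 of 9 members were lower by the same edgeR test and the other 5 were not called, when 13.2% of all genes were lower and 11.8% higher. Unadjusted p was below 0.05 for 6 of the 9. LGI1 and RAX are among the calls. LGI1 may have been picked for its fall at 24 h, which uses these 24 h libraries. RAX passed the filter on low counts only through the primed RUES2-GLR libraries, so nothing is read from either call. LHX2 fell from 1.54 and 1.72 CPM to 0.145 and 0.306 CPM (log2 fold change -2.98, SE 0.60, edgeR adjusted p = 9.53e-05). LGI1 fell from 2.50 and 1.21 CPM to 0.339 and 0.306 CPM (-2.48, SE 0.51, edgeR adjusted p = 0.000141). In both genes the 2 groups were separate, and for LHX2 this was the step that was called, not the one to 24 h.

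The other 2 calls rested on single counts. FEZF1 went from 12 counts in all at 24 h to 1 count at 120 h, a ratio of 18.0 with an exact 95% counting interval of 2.66 to 769 (edgeR adjusted p = 0.000793), and RAX went from 7 counts to 1 count, a ratio of 10.5 with an interval of 1.35 to 473 (edgeR adjusted p = 0.0310). Such intervals and floors cover counting error only. The RAX call was lost without any one of the 4 libraries (log2 fold change -3.35 and -2.87 without 24 h replicate 1 and 2, -5.43 and -2.64 without 120 h replicate 1 and 2) and with DESeq2, with adjusted p from 0.0307 to 0.125. LHX5, at 7 counts in each group, gave a log2 fold change of -0.57 (SE 0.73, edgeR adjusted p = 0.547). The median over the 9 members was -2.64, or -2.48 with SIX6, which had 4 counts at 24 h and 0 at 120 h, at its bound; the median of all genes was 0.00.

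Over the whole course from primed RUES2-GLR to 120 h, all 9 members were lower by edgeR's test, 6 of them unpicked, against 21.0% of all genes lower and 17.3% higher. The picked genes were chosen for their values in these primed RUES2-GLR libraries, and SIX3 and RAX passed the filter through them, so nothing is read from their calls. Of FEZF1, HESX1, LHX2 and SIX6, to which neither applies, 4 of 4 were lower. These 4 were still chosen with earlier results of these data known. Over these 4 the median was -6.89, which rests in part on SIX6 against 0 counts. The median over all 9 members was -7.70, or -7.49 with SIX6 at 120 h set at a bound of 3 counts, against 0.08 for all genes. At that bound SIX6 was 16.5-fold lower, and its exact 95% counting interval began at 12.5-fold. FEZF1 went from 1533 counts to 1 count, a ratio of 3040 with an exact 95% counting interval of 545 to 120134. LHX2 showed the smallest fall (-3.08, SE 0.62, edgeR adjusted p = 7.31e-05), and without primed RUES2-GLR replicate 1 its call was lost (-2.72), the adjusted p over alternatives running from 7.09e-08 to 0.0507.

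Naïve and primed H9 ESCs differed in the members in both directions. By edgeR's test 4 of 9 were higher in primed H9 and 1 was lower, when 25.5% of all genes were higher and 22.3% lower, and the median was 1.90 against 0.00 for all genes. SEZ6 and LHX5 are among these calls and were picked on comparisons that include the primed H9 libraries, so nothing is read from their calls. LHX5, and RAX, which was also called, passed the filter on low counts only through the primed RUES2-GLR libraries. SEZ6 rose from 0.784 and 1.26 CPM to 8.25 and 9.65 CPM (log2 fold change 3.15, SE 0.26, edgeR adjusted p = 3.19e-12). FEZF1 rose from 2 counts in all to 69, a ratio of 22.4 with an exact 95% interval of 5.98 to 189 (edgeR adjusted p = 9.19e-08). SIX6 rose from 0 counts to 36 (edgeR adjusted p = 5.93e-05). With naïve H9 set at a floor of 3 counts over the group this was 7.80-fold, and the exact 95% interval began at 6.02-fold.

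RAX rose from 1 count to 12, a ratio of 7.80 with an exact 95% interval of 1.15 to 333 (log2 fold change 2.68, edgeR adjusted p = 0.0303), and its call was lost without naïve H9 replicate 1 (1.74), without primed H9 replicate 1 (2.33) and with DESeq2 (adjusted p over alternatives 0.0214 to 0.236). LHX5 was the member that fell, by 1.64 on the log2 scale (SE 0.51, edgeR adjusted p = 0.00467), from 0.575 and 0.574 CPM to 0.280 and 0.143 CPM. That call was lost without primed H9 replicate 2 (-0.997), and its adjusted p ran from 0.00222 to 0.224 over the alternatives. HESX1 went from 1.62 and 1.72 CPM to 3.28 and 3.19 CPM, a log2 fold change of 0.95 that passed the p threshold (edgeR adjusted p = 0.00329) but not the fold threshold. The LHX2 groups measured 0.836 and 1.55 CPM against 0.769 and 0.691 CPM (-0.72, edgeR adjusted p = 0.0999), which became a call (-1.15) without naïve H9 replicate 1.

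Some genes within 100 kb of a member were high with it in primed RUES2-GLR, and others were not. FEZF1-AS1, which overlaps FEZF1 on the other strand, went from 0.225 ± 0.120 CPM (primed H9) to 24.3 ± 2.87 CPM (primed RUES2-GLR) and 0.387 ± 0.404 CPM (24 h, SD, n = 2 each). LHX5-AS1 had 0 counts in primed H9 and measured 21.8 ± 2.54 CPM in primed RUES2-GLR and 0.0985 ± 0.00342 CPM at 24 h, and LINC01833, 2503 bases from SIX3, went from 0.153 ± 0.0191 CPM to 8.20 ± 4.18 CPM and back to 0.0985 ± 0.00342 CPM. All 3 noncoding genes were thus highest in primed RUES2-GLR, as their neighbours were. Between the primed lines other neighbours went either way. APPL1, 120 bases from HESX1, was not called (log2 fold change -0.45). DENND1A near LHX2 (-1.10) and MYO18A near SEZ6 (-1.27) were called lower. LMAN1 near RAX (1.39), SLC35G1 near LGI1 (1.38) and SDSL near LHX5 (1.25) were called higher. The share of all neighbours called was not worked out, and over all genes 17.1% were higher and 12.2% lower. Default counting ignores strand and drops reads that overlap several genes, so reads in stretches shared by a member and its antisense partner were counted for neither. The strand of the reads that were counted is not known.

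PIPOX, which overlaps SEZ6 on the other strand and encodes pipecolic acid oxidase, did not follow SEZ6 between the primed lines. Primed H9 measured 50.9 ± 2.62 CPM of it and primed RUES2-GLR 38.6 ± 2.75 CPM (log2 fold change -0.39), where SEZ6 was higher in primed RUES2-GLR. At 24 h PIPOX was down to 1.18 ± 0.180 CPM (log2 fold change -5.04, SE 0.22). C14orf39, antisense to SIX6, measured 1.5 ± 0.0404 CPM, 2.78 ± 0.117 CPM and 1.05 ± 0.802 CPM in the same groups. SIX3-AS1 and LHX2-AS1 were near 0 in all 3 groups.

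**Figure D3:**
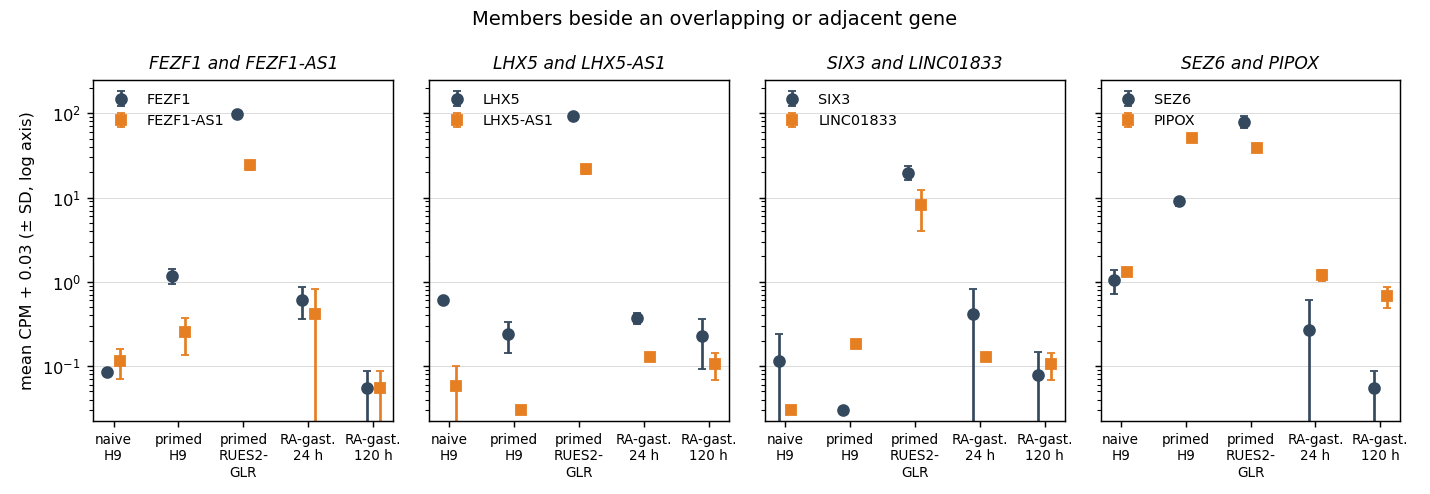
Mean level in CPM on a log axis, with 0.03 added and SD bars (n = 2), of 4 members and of a gene beside each; bars that leave the axis reach below 0. FEZF1-AS1, LHX5-AS1 and LINC01833 peaked in primed RUES2-GLR as their neighbours did, and PIPOX did not.

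Other genes of the forebrain and eye field were partly higher in primed RUES2-GLR. Of 20 such transcription factors, 12 passed the filter on low counts, and of these 6 were higher and 1 lower than in primed H9 (median log2 fold change 1.26 against -0.12 for all genes). PAX6, a regulator of eye and neural tube development, rose from 0.0477 to 4.97 CPM (log2 fold change 6.01), EMX2 from 0.0469 to 1.66 CPM (5.41) and DMBX1 from 0.152 to 3.51 CPM (4.66), whereas EMX1 fell from 17.2 to 2.66 CPM (-2.85). At 24 h 6 of the 12 were lower than in primed RUES2-GLR and 2 higher, with OTX2, the homeodomain factor of the anterior epiblast and forebrain, falling from 154 to 2.45 CPM (-5.97), DMBX1 to 0.144 CPM (-4.43), PAX6 to 0.247 CPM (-4.32) and OTX1 to 0.346 CPM (-4.04). The 2 higher ones, named after their values were seen, were SP8 (3.42) and FOXD1 (2.72).

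Antagonists of WNT, BMP and NODAL and RA-degrading enzymes formed the list with the largest share of higher genes in primed RUES2-GLR, SEZ6 genes apart. By edgeR's test 12 of 17 were higher and the rest were not called (median 2.35). The WNT antagonist DKK1 rose from 0.0596 to 5.65 CPM (log2 fold change 5.83), the activin antagonist FST from 4.62 to 241 CPM (5.65), CYP26C1 from 0.270 to 12.1 CPM (5.64) and CYP26A1 from 5.81 to 238 CPM (5.34). At 24 h the list was split, with 9 lower and 7 higher (median -1.21). SHISA2 (-7.21) and the NODAL antagonist LEFTY1 (-5.74) were lower, and CYP26B1 (5.24) and the BMP antagonist NOG (4.73) were higher.

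Neural genes in general did not share this pattern in one direction. Of 20 pan-neural genes 7 were higher in primed RUES2-GLR than in primed H9 and 3 lower (median 0.16), with HES5 (7.39), SOX1 (4.37) and SOX21 (3.63) higher and the neuronal tubulin TUBB3 (-2.81) lower. Of 20 midbrain, hindbrain and posterior neural genes 6 were higher and the rest were not called (median 0.00), among them WNT1 (6.88), EGR2 (3.38), IRX3 (1.93) and FGF8 (1.85). In the step to 24 h 13 of these 20 were higher and 2 lower (median 5.69), the opposite sign to the members' median, and 13 of 16 primitive streak, mesoderm and endoderm genes were higher (median 5.46).

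**Figure D4:**
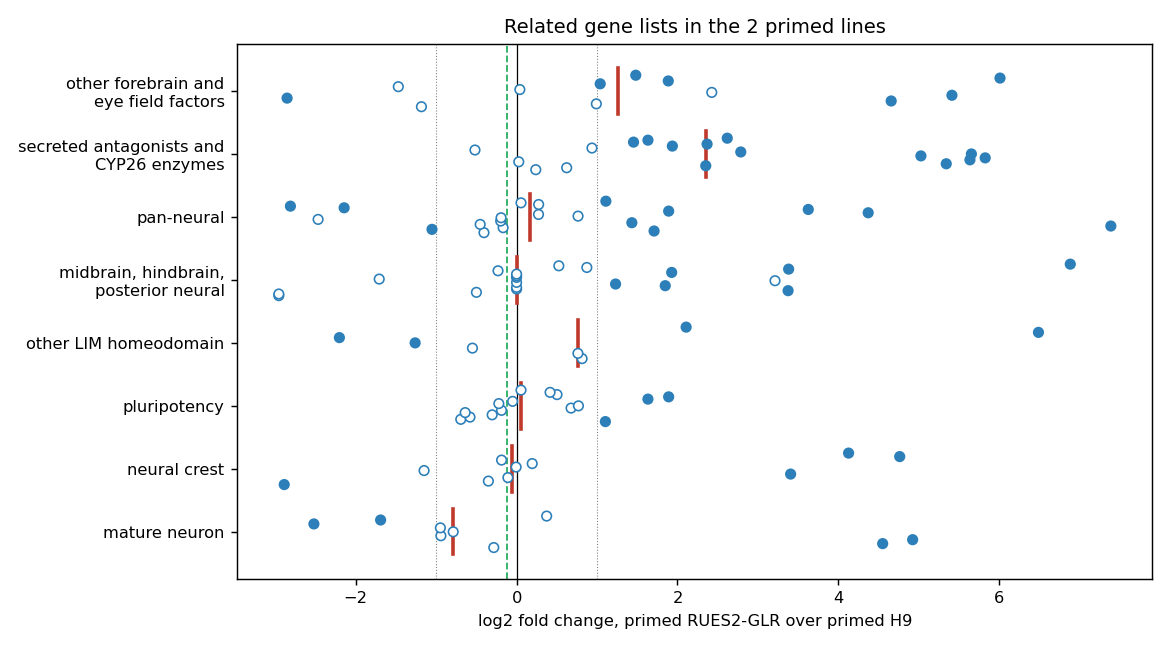
Log2 fold change of primed RUES2-GLR over primed H9 ESCs for the genes of 8 lists; filled points were called by the edgeR test with the fold threshold, the red bar is the list's median and the green dashed line the median of all genes tested (-0.12). Many points at 0 are genes with few or no counts in both lines.

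The relatives of the members showed no single direction. Of the other LIM homeodomain genes 7 of 10 were tested, with 2 higher (LMX1A 6.49 and LMX1B 2.11) and 2 lower (LHX8 -2.20 and LHX6 -1.26, neither called by DESeq2) in primed RUES2-GLR. Both other SEZ6 genes were higher in primed RUES2-GLR (SEZ6L 4.83 and SEZ6L2 1.61). At 24 h SEZ6L rose further (1.95), unlike SEZ6, and SEZ6L2 fell (-1.37). Of the LGI1 relatives and receptors 5 of 6 were tested and 2 were higher, the receptors ADAM11 (1.22) and ADAM23 (1.09).

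Among 20 cofactors of the member transcription factors 1 was higher in primed RUES2-GLR and 7 were lower (median -0.52, with 2 higher under DESeq2 size factors). The one higher was LMO1, a LIM-only protein that binds LIM domain partners, which rose from 0.0715 to 25 CPM (log2 fold change 7.73) and fell to 3.01 CPM at 24 h (-3.00). LMO2 (-1.75), DACH2 (-1.68) and TLE5 (-1.25) were among the lower ones. At 24 h 8 of the 20 were higher and 4 lower (median 0.90), with TLE2 (-4.28) lower and DACH1 (3.34) higher.

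Both primed lines carried the pluripotency markers of their label. Summed over 15 genes these came to 8849 to 9265 CPM for H9, 12649 to 12837 CPM for RUES2-GLR and 2402 to 2405 CPM at 24 h. Sums of some other marker lists were higher in primed RUES2-GLR than in primed H9 or at 24 h, but few of their genes were called so. The 10 fibroblast markers, which share THY1 with the pluripotency list, summed to 917 to 954 CPM (primed H9), 2100 to 2405 CPM (primed RUES2-GLR) and 1754 to 1802 CPM at 24 h. DCN and LUM were at 0 in both primed lines. Of these 10, 2 were called higher between the primed lines, against 17.1% of all genes. To 24 h 4 of them were higher and 2 lower. The 10 markers of non-neural ectoderm and amnion summed to 12.2 to 12.4, 45.4 to 47.2 and 8.68 to 8.84 CPM, with KRT14 and TP63 at 0 in primed RUES2-GLR. Of the 8 tested, 2 were called higher between the primed lines, and to 24 h 1 was higher and 2 lower. Neural crest markers summed to less in primed RUES2-GLR (111 to 129 CPM) than in primed H9 (182 to 193 CPM). Of these 10, however, 3 were called higher and 1 lower, against 17.1% and 12.2% of all genes. The 10 markers of mature neurons summed to 103 CPM in both primed RUES2-GLR libraries against 115 to 123 CPM in primed H9. Of the 9 tested, 2 were called higher and 2 lower. Their part in the result was not tested.

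The genes most like the mean of the 9 members over the 10 human samples, by Pearson's r of log2 CPM, were ELOVL4, FEZF1-AS1 and DPAGT1 (r = 0.989 each). For LHX5 alone they were ACVR1B (0.996), TM9SF2 (0.991), NPC1 (0.990), DOLPP1 (0.990) and RNF149 (0.988). The points share the 2 high primed RUES2-GLR libraries, so any gene that peaks there scores high. Ranking by Spearman's rho kept 1 of the 10 genes most like the mean and 0 of the 5 most like LHX5, and a prior count of 0.5 kept 5 and 4, and group means kept 6 and 3. In the 8 mouse samples the gene most like the mean of the members was Wrap73 (r = 0.974), and of the 10 first genes there Spearman's rho kept 5, a prior count of 0.5 kept 3 and group means kept 3.

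In mouse, the members were low throughout, and only Sez6, Hesx1 and Lhx2 passed the filter on low counts. The summed member level was 15.8 and 14.9 CPM in naïve ESCs, 4.14 and 3.68 CPM in EpiLCs, 4.54 and 4.75 CPM at 72 h and 12.3 and 10.3 CPM at 144 h. Lhx5 had at most 4 counts in any mouse library, Fezf1 at most 2, Six3 at most 2 and Six6 at most 4. EpiLCs, the mouse counterpart of primed ESCs in this design, were thus the lowest group in sum, where primed RUES2-GLR was the highest in human.

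Between naïve ESCs and EpiLCs 1 of the 3 tested genes was higher and 2 lower by edgeR's test, when 17.7% of all 15003 genes were higher and 12.1% lower. Hesx1 fell from 9.21 and 10.9 CPM to 1.18 and 0.592 CPM (log2 fold change -3.68, SE 0.32, edgeR adjusted p = 3.70e-15), and Lhx2 from 4.33 and 2.42 CPM to 1.33 and 0.855 CPM (-1.66, SE 0.39, edgeR adjusted p = 0.000206). Sez6 rose from 0.419 and 0.269 CPM to 1.18 and 1.58 CPM (2.10, SE 0.65, edgeR adjusted p = 0.00402). The Sez6 call was lost without mouse naïve replicate 2 (1.76), without EpiLC replicate 2 (1.81) and with DESeq2, with adjusted p from 0.00135 to 0.0917 over the alternatives. From naïve ESCs directly to 72 h gastruloids the same signs were found, with 1 higher and 2 lower (16.2% and 6.81% of all genes): Hesx1 -3.71, Lhx2 -1.89 and Sez6 2.40.

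From EpiLCs to 72 h, edgeR called 0 of the 3 genes (11.7% of all genes were higher and 9.24% lower), with 0 below an unadjusted p of 0.05 and 0 called by DESeq2. The log2 fold changes were 0.30 (SE 0.41) for Sez6, -0.03 (SE 0.50) for Hesx1 and -0.24 (SE 0.47) for Lhx2. From 72 h to 144 h Lhx2 rose from 0.840 and 0.879 CPM to 9.11 and 8.04 CPM (3.32, SE 0.31, edgeR adjusted p = 2.55e-14) and Hesx1 from 0.642 and 0.967 CPM to 1.87 and 1.94 CPM (1.30, SE 0.44, edgeR adjusted p = 0.00664), whereas Sez6 fell from 1.63 and 2.02 CPM to 0.700 and 0 CPM (-2.16, SE 0.61, edgeR adjusted p = 0.00130). That is 2 higher and 1 lower of 3, when 20.1% and 19.1% of all genes were, and Lhx2 and Hesx1 were separate between the 2 times. Hesx1 was not called without 72 h replicate 1 (0.96, adjusted p over alternatives 0.00513 to 0.105), nor Sez6 without 144 h replicate 2 (-1.33, adjusted p over alternatives 0.000128 to 0.0699), whereas Lhx2 was called under every alternative run.

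**Figure D5:**
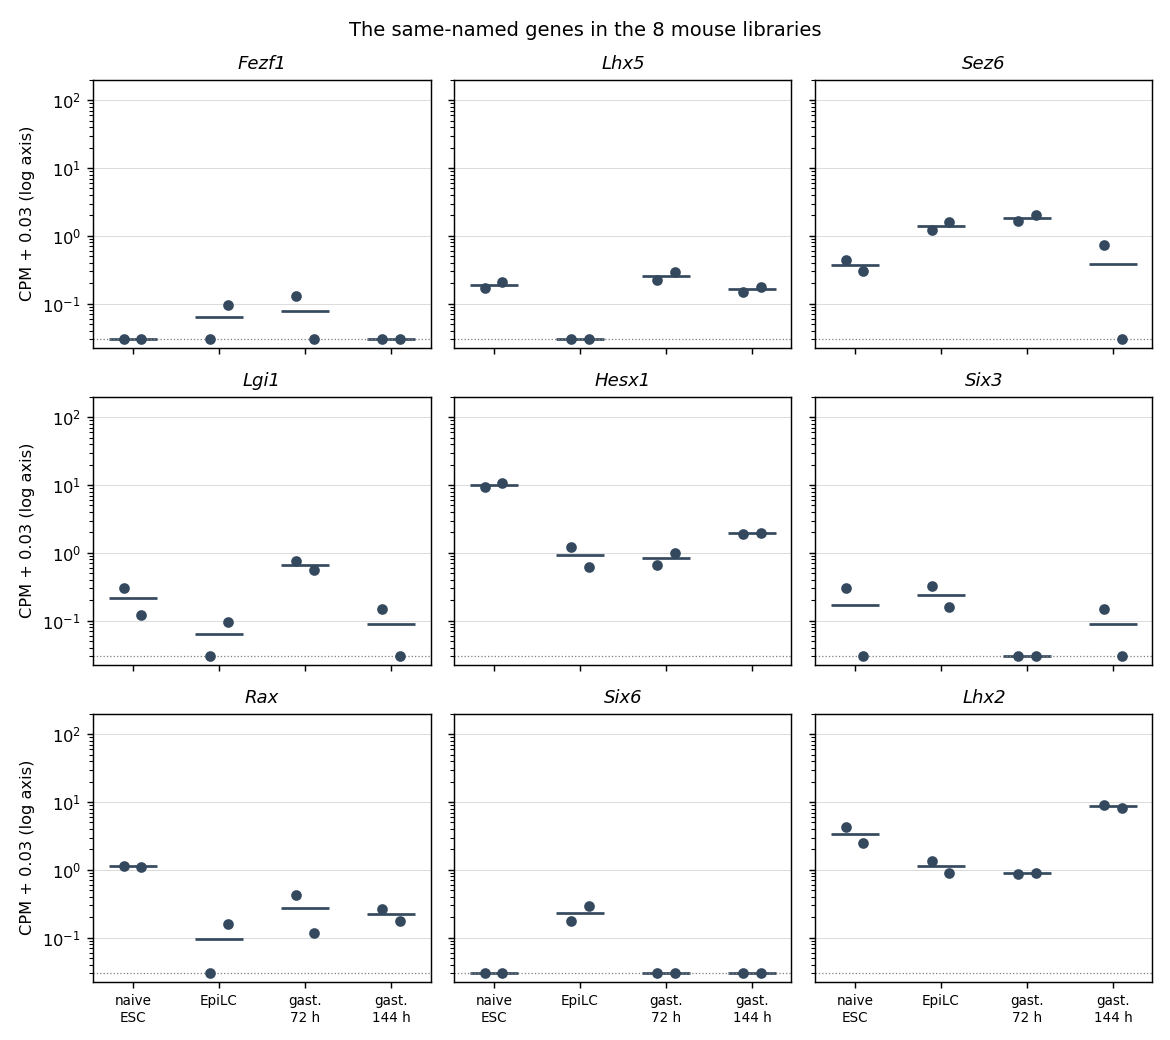
Level of each member in the 8 mouse libraries, in CPM with 0.03 added, on a log axis; dots are the 2 replicates of a group, the short line is their mean and the dotted line marks 0. Lhx2 was highest in late gastruloids, Hesx1 in naïve ESCs, and no panel shows a peak in EpiLCs that compares with the human primed RUES2-GLR values.

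The change of each member was then compared between species in 1 fit over 14007 genes with the same name, as the human minus the mouse log2 fold change. For primed (RUES2-GLR or EpiLC) to early, 3 of the 6 unpicked members differed (FEZF1, HESX1 and RAX, all with the more negative value in human), against 32.6% of all genes in either direction. Mouse Fezf1 and Rax did not pass the filter on mouse counts, and human RAX passed only through primed RUES2-GLR, so of the 3 only HESX1 was measured on both sides. For LHX2 this difference was 0.03 (SE 0.63, adjusted p = 0.991 by edgeR's test). For early to late 2 of 9 differed, HESX1 and LHX2, against 35.4% of all genes: LHX2 fell in human and rose in mouse. The first count was 1 without mouse 72 h replicate 1, when FEZF1 and RAX were no longer called, and the second was 1 without human 24 h replicate 2, human 120 h replicate 1 or mouse 72 h replicate 1, when HESX1 was no longer called. The early times were 24 h and 72 h, and the 24 h leave out the human pre-treatment. The mouse gastruloids were not made from EpiLCs. Stage, time and route therefore cannot be told apart from species.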

How the data were processed

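The authors extracted poly(A) RNA, built libraries with NEBNext Ultra II and sequenced them as paired ends on an Illumina NextSeq. Read lengths varied, and the paper does not assign them to samples. Trimmomatic 0.39 was used for trimming, STAR for alignment (human GRCh38, mouse GRCm39) and featureCounts at default settings for counting. The deposited values are raw counts per gene. Default counting ignores strand and drops reads that map to several places or overlap several genes. The annotation release is not given in the sources used here. Symbols came from GENCODE 44 (44876 of 44910 human genes named) and M39 (29486 of 29720 mouse genes named).

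Counts were filtered with filterByExpr, scaled by TMM and tested with edgeR 4.0.16 (quasi-likelihood, Benjamini-Hochberg adjustment over all 18300 human or 15003 mouse genes, R 4.3.3), with all groups of a species in 1 fit. A call needed an adjusted p below 0.05 and an absolute log2 fold change of at least 1. Species differences were interaction terms over genes of the same name. CPM used TMM-scaled library sizes, and TPM used merged exon lengths. The scripts were tested on simulated counts. With 2 replicates a group, collected as 1 batch, p-values measure the spread between these samples only. Replicates of a group differed by more than sampling noise (chi-square per degree of freedom at least 1.55), so none was counted as a duplicate.

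The members and the gene lists were chosen with earlier results of these data known. All members are named. Of each list, up to 4 genes per comparison with the largest change are named, among called genes whose 2 groups did not overlap. Likeness to the members is Pearson's r of log2 CPM with a prior count of 2. Alternatives were DESeq2 1.42.0, other scalings, no filter, a replicate block, fits of the compared groups alone, the adjusted p alone and leaving out each replicate. One gene of the lists is not reported here.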

Additional observations from a re-analysis of the deposited data

Results flagged for a closer look

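For 5 results the change of a member differed between human and mouse by the interaction test, and no explanation is weighed here. From primed cells to early gastruloids, the human minus mouse log2 fold change was -5.16 for HESX1 (SE 0.68, adjusted p = 5.60e-08 by edgeR's quasi-likelihood test), -6.00 for RAX (SE 1.21, edgeR adjusted p = 6.52e-05) and -7.87 for FEZF1 (SE 2.03, edgeR adjusted p = 0.00128). HESX1 fell in both human replicates, and its mouse counts were 8 and 9 in EpiLCs and 13 and 11 at 72 h. The other 2 are values only: neither gene passed the filter on mouse counts, and human RAX passed only through the primed RUES2-GLR libraries, where it was high. Mouse Rax had 0 and 2 counts in EpiLCs and 8 and 1 at 72 h, and Fezf1 had 0 and 1 in EpiLCs and 2 and 0 at 72 h.

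From early to late gastruloids the difference was -6.16 for LHX2 (SE 0.67, edgeR adjusted p = 6.87e-10), which was lower in both human 120 h libraries and higher in both mouse 144 h libraries. For HESX1 it was -2.17 (SE 0.81, edgeR adjusted p = 0.0203), from counts of 4 and 11 at 24 h and 5 and 6 at 120 h in human. HESX1 here was lost without human 24 h replicate 2 (-1.22), human 120 h replicate 1 (-1.37) or mouse 72 h replicate 1 (-1.86).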

How the results depend on the processing

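The numbers of members called changed by over 1.5 times in few cases. From 24 h to 120 h the count was 2 in place of 4 when only the compared groups were fitted, where FEZF1 and RAX did not pass the filter on low counts. From EpiLCs to 72 h it was 1 in place of 0 with no filter, when Lgi1 was tested and called (log2 fold change 3.59, edgeR adjusted p = 0.00977). Leaving out 1 replicate at a time gave 1 to 3 members with a species difference from primed to early and 1 to 2 from early to late. Same-numbered replicates did not deviate together (r from -0.09 to 0.07), so the samples share only a number; with a replicate block 5 of 6 members were called between the primed lines (SIX6 1.11 not called) and no other count changed.

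Some values that had not been called changed sign. Without 1 replicate these were LHX2 from primed RUES2-GLR to 24 h (range over replicates left out -0.26 to 0.26), SEZ6 from 24 h to 120 h (-4.96 to 2.41), LGI1 from naïve to primed H9 (-1.94 to 4.01) and Hesx1 from EpiLC to 72 h (-0.63 to 0.36, with 0.31 between, also 0.0056 with a replicate block and 0.0020 with no filter). The species differences that did so were SIX6 (-2.99 to 2.50) and LHX2 (-0.19 to 0.46) from primed to early, and LHX5 (-0.77 to 0.62) and SEZ6 (-2.53 to 5.0) from early to late. Beyond leaving out libraries, the cause was not tested. SIX6, LHX2 and most mouse members had few counts.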
